A study of Homo sapiens with 60 samples.

Results

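The genes described here are 45 genes of DNA replication licensing, the replication fork, nucleotide supply and the passage from G1 into S phase, listed by name. All 45 were found among the 19712 genes of the count table and all 45 passed the filter on low counts in every line. They were followed in 4 EGFR-mutant non-small cell lung cancer lines, PC9, HCC827, H1975 and HCC2935, by mRNA sequencing of 60 libraries, 3 biological replicates for each of 5 arms per line. Vehicle cells received DMSO for 24 h. Acute cells received 500 nM osimertinib, a third-generation inhibitor of mutant EGFR, for 24 h. DTPs, the drug-tolerant persister cells, are those that survived 500 nM osimertinib for 21 days. After those 21 days the drug was removed for 24 h in the short washout and, in the long washout, until proliferation was labelled as exponential again, which took 7 days in PC9, 4 days in HCC827, 3 days in H1975 and 10 days in HCC2935. The length of the long washout is therefore tied to the line. The models are cultured tumour lines with no untreated 21-day control, so time in culture and drug cannot be told apart in the DTP and washout arms.

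DNA replication is prepared in G1, when the origin recognition complex, CDC6 and CDT1 load the MCM2 to MCM7 ring onto origins, and starts when CDC45 and the GINS complex turn that ring into an active helicase. The clamp PCNA, its loader RFC and the replicative polymerases then copy the strands, while ribonucleotide reductase and thymidylate synthase supply the building blocks. Most of these genes are transcribed by E2F factors, which are held back by RB until cyclin D and cyclin E kinases release them, and mitogen signalling through EGFR and ERK feeds into that release.

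E2F words in the promoters of these genes are shown first because the members were chosen by function and not by promoter. A RefSeq promoter (GRCh38.p14, 250 bases before to 50 bases after the start site) was matched for 38 of the 45 genes, and for 14801 genes of the files in all. One of the words TTTCCCGC, TTTGGCGC, TTTCGCGC or TTTGCCGC was found on either strand in 20 of the 38 promoters (52.6%), against 666 of 14801 (4.5%). With the last base left off, the share was 60.5% of the members and 11% of all promoters. The NF-Y word CCAAT was held by 55.3% of the members and 36.5% of all promoters, and TTTGAA or TTCGAA, the words of the CHR element of later cell cycle genes, by 5.26% and 13.2%. These 3 sets share no word, and both strands were searched for each. The windows below, 5′ to 3′ on the strand of the gene, show the E2F word in capitals for the 9 genes described in detail that hold one, with 2 for E2F1.
MCM2, chr3:127598402-127598431, plus strand: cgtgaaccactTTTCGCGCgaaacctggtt
CDC6, chr17:40287875-40287904, plus strand: ggccattcggaTTTGGCGCgagcgcggctg
CDT1, chr16:88803743-88803772, plus strand: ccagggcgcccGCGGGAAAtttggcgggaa
GINS2, chr16:85688967-85688996, minus strand: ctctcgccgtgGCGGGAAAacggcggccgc
PCNA, chr20:5126663-5126692, minus strand: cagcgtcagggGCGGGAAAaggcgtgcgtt
TYMS, chr18:657603-657632, plus strand: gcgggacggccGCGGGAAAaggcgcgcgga
E2F1, chr20:33686400-33686429, minus strand: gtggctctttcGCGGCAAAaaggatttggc
E2F1, chr20:33686387-33686416, minus strand: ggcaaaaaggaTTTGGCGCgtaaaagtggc
E2F2, chr1:23531257-23531286, minus strand: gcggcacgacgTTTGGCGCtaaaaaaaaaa
UHRF1, chr19:4909476-4909505, plus strand: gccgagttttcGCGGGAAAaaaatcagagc
In MCM2 the word overlaps a second one on the other strand. The 2 E2F1 windows overlap, and their words lie 33 to 26 and 20 to 13 bases before the start site. The E2F word of CDC6 lies 8 to 15 bases after the start site, and that of CDT1 35 to 28 bases before it. A match of letters is not a measured site. The 20 genes with a word had a median of -2.01 (log2 fold change of acute osimertinib against DMSO, mean of the 4 lines), and the 18 without one of -1.71. Their ranges overlapped, at -3.29 to -1.20 with a word and -3.42 to -0.41 without. MCM10, the gene at -3.42, held none, and neither did RRM2, CDC45 and ORC1. Whether the word has a part in the fall was not tested.

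Estimated counts (M, 1e6 counts) summed to 34.7 to 47.1 M per library in PC9, 38.7 to 49.1 M in H1975, 17.7 to 25.1 M in HCC827 and 18.6 to 25.6 M in HCC2935. Levels below are CPM (counts relative to the library total) after TMM scaling over all 60 libraries, given for replicates 1, 2 and 3, and levels of different genes are compared only as TPM, which corrects for length. The 5 epithelial markers ranged from 1.28 TPM (CDH1 in an H1975 library) to 6127 TPM. Over the H1975 libraries CDH1 had a median of 2.77 and a maximum of 134 TPM, and EPCAM a median of 23.1 and a maximum of 272 TPM. Of the markers of other cells, CD3E and PTPRC did not pass 0.246 and 3.48 TPM, the 3 leukocyte markers reached at most 12.7 TPM and the 2 endothelial markers at most 21.1 TPM, while COL1A1, a fibroblast collagen, reached 166.9 TPM in H1975. As a check of the drug label, the mean of 8 ERK output genes such as DUSP6 and SPRY4, relative to DMSO on the log2 scale, was -3.68, -4.04 and -2.60 in the acute libraries of PC9, -2.46, -2.29 and -1.40 in HCC827, -2.35, -2.11 and -2.92 in H1975 and -3.58, -3.83 and -3.40 in HCC2935. Bulk libraries cannot tell fewer replicating cells from less of these mRNAs per cell.

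In DMSO the 45 genes spanned a wide range of levels. Their median was 40.6 TPM in PC9, 48.9 in HCC827, 52.9 in H1975 and 56.7 in HCC2935. RRM2, the small subunit of ribonucleotide reductase, was the most abundant in PC9 with 233 ± 28.2 TPM (SD, n = 3), in H1975 with 333 ± 21.1 and in HCC2935 with 480.1 ± 38.6. In HCC827, MCM7 ranked first with 189.5 ± 24.5 TPM and RRM2 had 179 ± 41.9, a gap smaller than either SD. The lowest gene in each line was E2F2, a transcriptional activator of S-phase genes, from 0.568 ± 0.234 TPM in HCC827 to 9.40 ± 1.39 in HCC2935.

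Averaged over the 45 genes on the log2(CPM + 1) scale and set against the DMSO mean, the libraries of each line took the same order up to the DTP stage. The acute libraries were lowest, at -1.60, -1.99 and -1.41 in PC9, -1.81, -1.76 and -1.56 in HCC827, -1.53, -1.63 and -1.68 in H1975 and -2.13, -2.15 and -2.19 in HCC2935. The DTPs stood between acute and DMSO, at -1.01, -1.01 and -1.04 in PC9, -1.08, -0.89 and -1.05 in HCC827, -1.38, -0.88 and -1.43 in H1975 and -1.40, -1.66 and -1.11 in HCC2935. No DTP library of any line reached as low as an acute library of the same line.

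**Figure D1:**
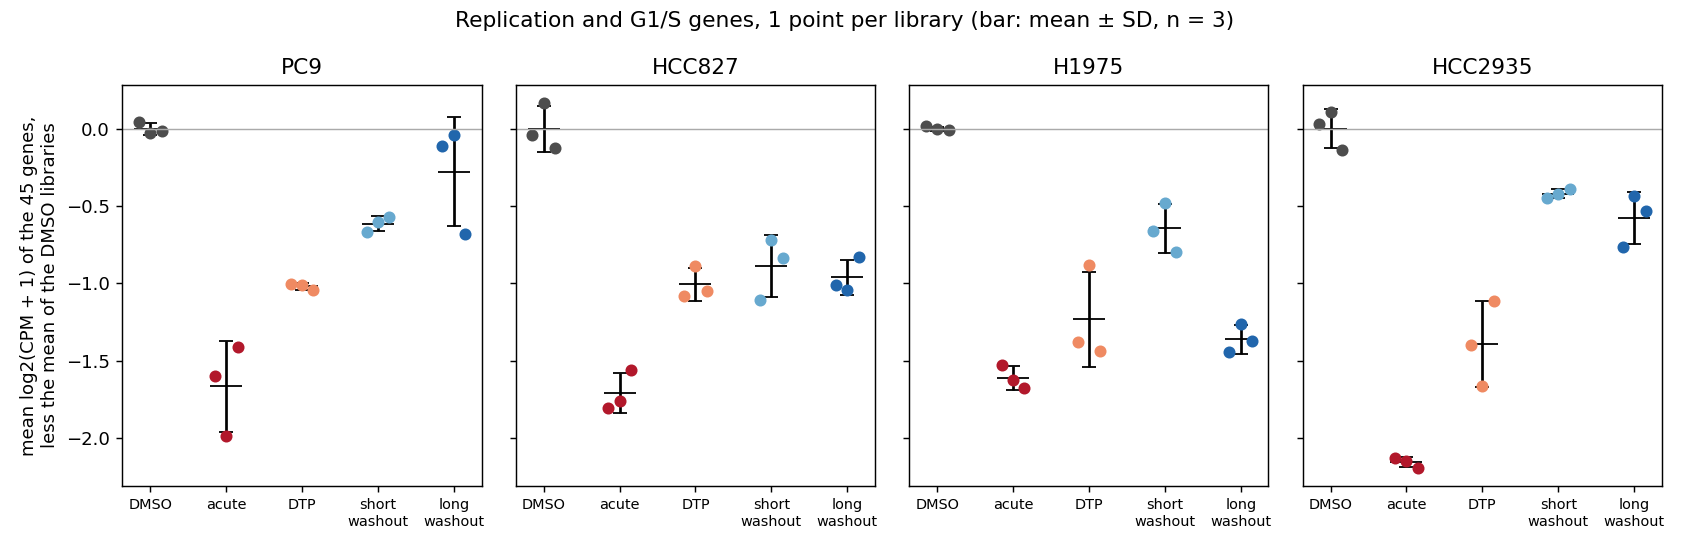
Mean log2(CPM + 1) of the 45 genes in each library, less the mean of the DMSO libraries of the line (vertical axis), by arm (horizontal axis) in the 4 lines. Points are libraries, bars are mean ± SD of 3. The acute points are lowest in all 4 lines, and the long washout points lie near DMSO in 2 of 3 PC9 libraries (-0.11 and -0.04) but with the DTPs in HCC827 and H1975.

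2 libraries stood apart from their replicates. PC9 long washout replicate 3 had a mean of -0.68 beside -0.11 and -0.04, and its ERK output genes were also lower, at -1.31, -0.78 and -2.46 for the 3 replicates. H1975 DTP replicate 2 had -0.88 beside -1.38 and -1.43. The 3 H1975 long washout libraries, labelled as proliferating exponentially, had -1.45, -1.26 and -1.38, inside or below the range of the DTPs. The libraries do not measure growth, and that label was not tested. The HCC827 long washout libraries, at -1.01, -1.04 and -0.83, overlapped their DTPs too.

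Acute osimertinib lowered all 45 genes in all 4 lines. The medians of their log2 fold changes were -1.72 in PC9, -1.85 in HCC827, -1.72 in H1975 and -2.11 in HCC2935, where the medians over all genes tested were 0.07, 0.02, 0.10 and 0.07. Genes called lower at an adjusted p below 0.05 made up 31.7%, 20.2%, 23.8% and 22.2% of all genes tested in the 4 lines. Of the 45 genes, 38, 39, 39 and 41 had a log2 fold change below -1. Of the 5 epithelial markers 1, 2, 1 and 2 were lower and 4, 0, 2 and 0 higher in the acute arm, and of the 2 fibroblast markers 1, 1, 2 and 1 were higher. Of the 2 endothelial markers 1 was lower in PC9, 1 higher in H1975 and 2 higher in HCC2935. The part of these markers in the result was not tested.

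The licensing and helicase genes had medians over 16 genes of -2.12, -2.11, -1.88 and -2.71. CDC6, the ATPase that helps load the MCM ring, went from 121, 142 and 139 CPM in DMSO to 13.3, 5.17 and 17.6 in acute PC9 cells, the lowest fold change there at -3.51 (SE 0.34, adjusted p = 6.75e-07). It was also the lowest in HCC827, at 98.1, 133 and 95.9 CPM in DMSO and 9.16, 12.1 and 15.8 in the acute arm, a log2 fold change of -3.17 (SE 0.21, adjusted p = 2.54e-07). In both lines the arms were far apart, and PC9 acute replicate 2 was the lowest library.
MCM10, a scaffold that activates the helicase, was the lowest in the other two lines. It had 52.4, 47.6 and 48.5 CPM in DMSO and 2.86, 2.52 and 1.51 under the drug in HCC2935, a log2 fold change of -4.41 (SE 0.28, adjusted p = 2.06e-08). In H1975 it had 46.9, 56.7 and 53.4 and 8.55, 7.44 and 6.37 CPM, a log2 fold change of -2.83 (SE 0.22, adjusted p = 8.24e-07). CDC45, a subunit of the active helicase, fell by 3.79 on the log2 scale in HCC2935 and GINS2, of the GINS complex, by 3.27. MCM2 of the ring fell less, by 1.76 in H1975 to 2.57 in HCC2935.

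CDT1, which works beside CDC6 in loading and whose protein is destroyed in S phase, was the licensing gene with the smallest fall in PC9. Its levels there were 67.2, 62 and 63.4 CPM in DMSO and 40.2, 29.8 and 42.1 in the acute arm, a log2 fold change of -0.80 (SE 0.15, adjusted p = 3.40e-04). In HCC2935 they were 82.9, 99.7 and 67.4 and 14.3, 11.3 and 13, a log2 fold change of -2.67 (SE 0.24, adjusted p = 4.02e-07). The fall differed between the lines (adjusted p = 5.86e-06, edgeR F test of the 4 lines), running from PC9 through HCC827 (-1.19) and H1975 (-1.78) to HCC2935.

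Among the 20 genes of the clamp, polymerases and fork the medians were -1.51, -1.52, -1.40 and -1.70. RFC3, of the clamp loader, was the lowest of these in every line (-2.59 in PC9, -2.41 in HCC827, -2.24 in H1975 and -2.44 in HCC2935). PCNA, the sliding clamp, fell in every line (-2.08 in PC9, -2.37 in HCC827, -2.16 in H1975 and -2.30 in HCC2935, adjusted p for a difference between lines, which was not called = 0.713). Its CPM in H1975 were 262, 249 and 259 in DMSO and 64.5, 56.1 and 53.6 in the acute arm. POLE3, a histone-fold subunit of polymerase epsilon that also belongs to a chromatin remodeller, fell by 1.37, 0.99, 1.14 and 0.94 on the log2 scale in PC9, HCC827, H1975 and HCC2935.
The gene with the highest fold change was RFC1, RPA1 or RPA3, depending on the line. RFC1, the large subunit of the clamp loader, moved from 119.7, 123 and 139 CPM to 91, 101 and 104 in PC9 and from 58.9, 68.2 and 73.1 to 47.9, 58.1 and 40.5 in HCC2935, where it was the highest of the 45 at -0.43 (SE 0.12, adjusted p = 0.00882). It was also the highest in HCC827, at -0.37 (SE 0.12, adjusted p = 0.0255). In PC9 and HCC2935 the arms of RFC1 did not overlap, but they were close together. RPA3, of the single-strand binding complex, was highest in PC9 with 42.3, 44.4 and 41.4 CPM in DMSO and 37.6, 33.5 and 33.6 in acute cells, a log2 fold change of -0.31 (SE 0.10, adjusted p = 0.0129). In HCC827 the same gene had 53.4, 41.4 and 48 and 17.8, 14.5 and 19.2 CPM, a log2 fold change of -1.5 (SE 0.16), and the lines differed (adjusted p = 5.04e-04). RPA1 was the highest in H1975, at -0.34 (SE 0.09, adjusted p = 0.00356).

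Nucleotide supply fell with the licensing genes. RRM2 dropped from 519, 525 and 429 CPM to 28.1, 25.2 and 28.3 in HCC2935, a log2 fold change of -4.15 (SE 0.24, adjusted p = 9.63e-09), and from 392, 389 and 359 to 61.6, 61.3 and 57.3 in H1975, a log2 fold change of -2.68 (SE 0.27). The large subunit RRM1 changed less than RRM2 in each line (-1.44 in PC9, -1.95 in HCC827, -1.34 in H1975 and -1.97 in HCC2935). TYMS, which makes thymidylate, had fold changes of -2.29 in PC9, -2.72 in HCC827, -2.15 in H1975 and -2.93 in HCC2935 on the log2 scale, and its CPM in HCC2935 were 97.9, 109 and 87.9 in DMSO and 12.6, 12.8 and 12.7 under the drug.

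The 4 G1/S regulators fell by different amounts in the lines. CCNE1, cyclin E1, had 34.5, 33.5 and 34.5 CPM in PC9 DMSO and 7.87, 8.46 and 10.3 in the acute arm, a log2 fold change of -1.97 (SE 0.13). In HCC2935 it had 25.7, 24.1 and 19.5 and 4.02, 3.35 and 3.80, a log2 fold change of -2.61 (SE 0.19). The fall was smaller in HCC827, 8.48, 12.2 and 8.62 against 5.64, 5.43 and 4.80 CPM, a log2 fold change of -0.91 (SE 0.19), and in H1975, 17.8, 21.8 and 19.2 against 10.9, 11 and 8.04, a log2 fold change of -0.99 (SE 0.13).
CCNE1 had the smallest p of the 45 for a difference between lines (adjusted p = 2.51e-08). Cyclin E2, CCNE2, took another order: -1.35 in PC9, -1.55 in HCC827, -2.15 in H1975 and -2.85 in HCC2935. E2F1, an activating E2F, fell by 1.75 in PC9, 2.64 in HCC827, 2.03 in H1975 and 2.88 in HCC2935 on the log2 scale. E2F2 went from 2.89, 1.19 and 2.80 CPM in HCC827 DMSO to 0.391, 0.524 and 1.18 in acute cells, a log2 fold change of -1.73 (SE 0.54), the largest SE of any acute change, while in HCC2935 it went from 34.3, 35.7 and 25.4 to 3.84, 3.56 and 4.35, a log2 fold change of -3.00 (SE 0.21).

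UHRF1, which helps copy DNA methylation onto the new strand, fell with the licensing genes, from 184, 186 and 138 to 12.9, 14.2 and 9.11 CPM in HCC2935 (-3.79, SE 0.24). SLBP, the stem-loop binding protein of histone mRNAs, fell less: -1.10 in PC9, -1.17 in HCC827, -0.89 in H1975 and -1.56 in HCC2935. Its PC9 levels were 127, 117 and 120.5 CPM in DMSO and 56.3, 55.6 and 61.4 in the acute arm, so the groups stayed apart.

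**Figure D2:**
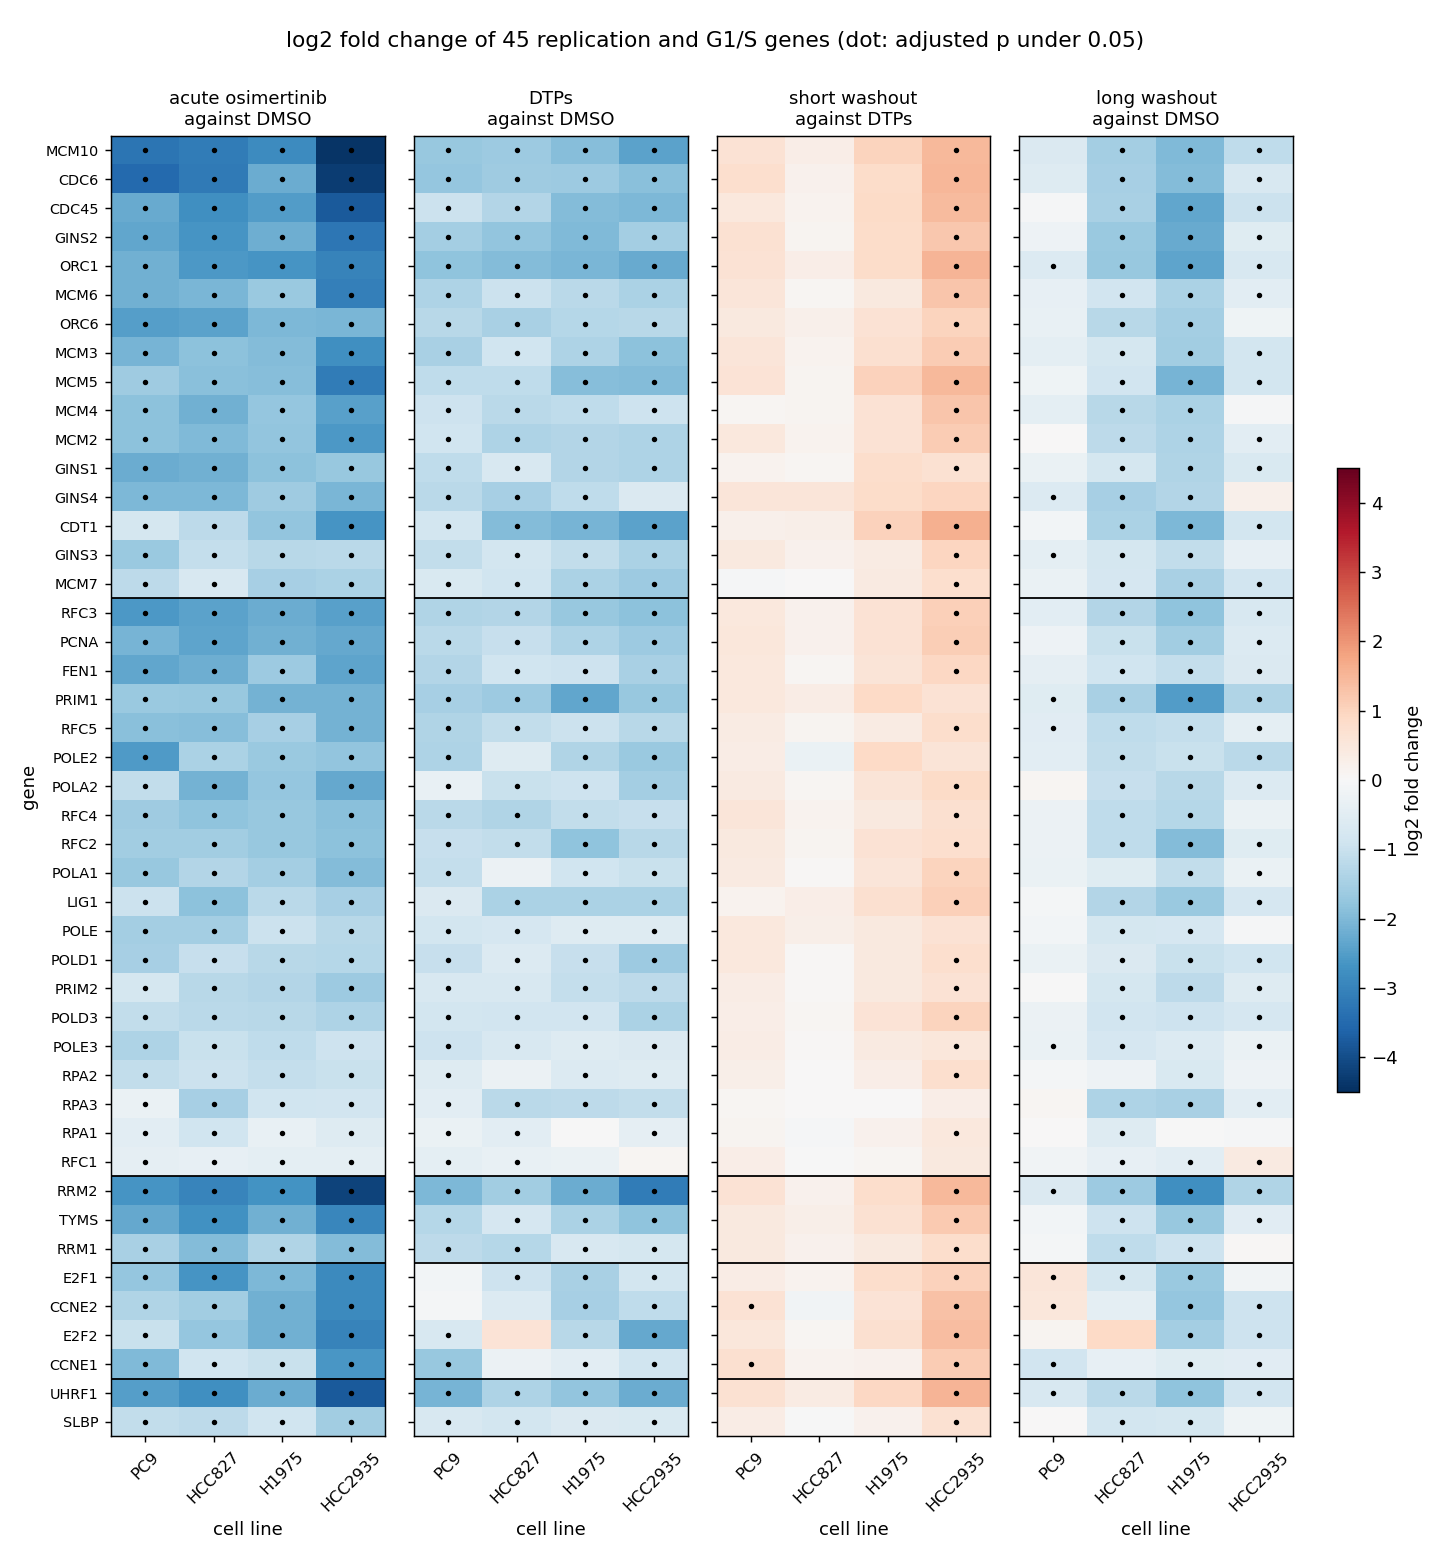
log2 fold change of each of the 45 genes (rows, grouped by role and ordered within a role by the mean acute change) in each line (columns) for 4 comparisons, with a dot where the adjusted p was below 0.05. Every cell of the acute panel is blue and dotted, the DTP panel is paler, the short washout panel is dotted throughout only in the HCC2935 column apart from 6 genes, and the long washout panel ranges from 11 dots in PC9 to 44 in H1975.

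Across the 45 genes the acute falls of any pair of lines, which share no library, ran together with Pearson r of 0.717 to 0.860 and Spearman rho of 0.646 to 0.848. These are correlations across genes, which are not independent replicates. The F test over the 4 lines called a difference in the acute change for 24 of the 45 genes, and for 41.4% of all genes tested. Without replicate 1 of every group the number was 8, and without replicate 2 or 3 it was 20. The 21 not called included PCNA, RFC3, TYMS, ORC1 and RFC1.

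Most partners of these genes were lower too. Of 68 further genes, in lists of origin and fork partners, dNTP supply, chromatin copying and the E2F and pocket protein network, 61, 57, 60 and 55 were lower in the acute arm of PC9, HCC827, H1975 and HCC2935, and 2, 1, 2 and 4 were higher. Among all genes tested, 31.7%, 20.2%, 23.8% and 22.2% were called lower in the acute arms of these lines. GMNN, the geminin that restrains CDT1, had log2 fold changes of -2.41, -2.12, -1.64 and -2.21. CDC25A, the phosphatase that activates the cyclin E kinase, had -3.36, -1.93, -2.32 and -3.42. Against the direction, the pocket protein gene RBL2, known to repress E2F targets in resting cells, was higher in PC9 (1.19), H1975 (0.74) and HCC2935 (0.61), with 0.51 and no call in HCC827. POLD4, the smallest subunit of polymerase delta, was higher in PC9 (1.49), HCC827 (0.51) and H1975 (0.70), and had -0.01 in HCC2935.

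After 21 days of drug most of the genes were still below DMSO, but less so than at 24 h. Lower in DTPs were 43 in PC9, 39 in HCC827, 43 in H1975 and 43 in HCC2935, and none was higher; the shares of all genes called lower were 33.5%, 20.4%, 25.7% and 25.8%. The medians were -1.12, -1.0, -1.27 and -1.42, beside 0.06, 0.03, 0.02 and 0.04 over all genes. The lowest were UHRF1 in PC9 (-2.08, SE 0.26), the origin subunit ORC1 in HCC827 (-1.97, SE 0.17), the primase PRIM1 in H1975 (-2.33, SE 0.20) and RRM2 in HCC2935 (-3.14, SE 0.23).

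Markers of cell identity moved in the DTPs as well. Of the 5 epithelial markers 3, 4, 3 and 3 were lower than in DMSO in PC9, HCC827, H1975 and HCC2935, with medians of -0.24, -1.57, -1.0 and -0.51, and 1 was higher in PC9. Of the 2 fibroblast markers 2, 2, 1 and 1 were higher, with medians of 1.82, 3.75, 1.11 and 2.23. Both leukocyte markers tested in H1975 were lower (median -3.40), and 1 endothelial marker was lower in PC9 and 1 higher in H1975. Several of these markers were near the floor. PDGFRB of the fibroblast pair had medians of 0.08, 0.50, 5.74 and 0.02 TPM over the libraries of the 4 lines. In H1975 the medians of PTPRC and CD79A were 1.27 and 0.19 TPM. Of all genes tested, 5305 of 14866, 3373 of 14665, 4002 of 15379 and 4032 of 14946 were called higher in DTPs. The part of these markers in the results on the 45 genes was not tested.

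The genes not called lower in DTPs included cyclin E, E2F, RFC1 and RPA genes. In PC9 they were E2F1, with 63.9, 57.7 and 52.9 CPM in DMSO and 52.9, 56.5 and 51.4 in DTPs (-0.14, SE 0.20, adjusted p = 0.545), and CCNE2, with 7.24, 7.19 and 7.87 and 7.49, 6.81 and 6.99 (-0.09, SE 0.16, adjusted p = 0.635). CCNE1 was nevertheless low in PC9 DTPs, at 11, 9.91 and 11.1 CPM (-1.70, SE 0.13, adjusted p = 2.14e-07). In HCC827 the 6 were POLA1 and POLE2 of the polymerases, RPA2, CCNE1, CCNE2 and E2F2.
E2F2 was the highest of the 45 in HCC827, with 2.89, 1.19 and 2.80 CPM in DMSO and 2.44, 4.59 and 3.42 in DTPs (0.61, SE 0.50, adjusted p = 0.346), and its arms overlapped. CCNE1 had 7.42, 8.94 and 7.78 CPM in HCC827 DTPs (-0.26, SE 0.19, adjusted p = 0.289). In H1975 the exceptions were RPA1 (-0.02, the highest) and RFC1 (-0.28). In HCC2935 they were RFC1 (0.07, the highest) and GINS4 (-0.66). CCNE2 was the highest in PC9. The lines differed in the DTP change for 22 of 45 genes, below the 63.9% of all genes; without replicate 1 of every group the number was 8. CCNE1 (adjusted p = 9.75e-07) and CDT1 (adjusted p = 4.55e-05) were among the 22, and CDC6 (adjusted p = 0.895) and MCM10 (adjusted p = 0.349) were not.

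Set directly against the acute arm, DTPs had higher levels of 30 genes in PC9, 35 in HCC827, 25 in H1975 and 34 in HCC2935, where 16.1%, 18%, 18.3% and 22.8% of all genes were higher. The medians were 0.56, 0.78, 0.47 and 0.83. CDC6 was the highest in PC9 (1.77, SE 0.32) and in HCC2935, where it rose from 8.30, 11.5 and 7.74 to 50.2, 34 and 61 CPM (2.39, SE 0.22). E2F2 was the highest in HCC827 (2.35, SE 0.54) and MCM10 in H1975 (0.92, SE 0.22). E2F1 rose in all 4 lines: 1.61 in PC9, 1.69 in HCC827, 0.58 in H1975 and 2.07 in HCC2935.
CDT1 did not follow. It was the only one of the 45 called lower in any line, in HCC827, with 29, 40.5 and 34.1 CPM in the acute arm and 18.5, 22.1 and 18.2 in DTPs (-0.77, SE 0.21, adjusted p = 0.0128, beside 11.5% of all genes called lower). In PC9 it had -0.02, in H1975, where it was the lowest of the 45, -0.32, and in HCC2935 0.26. RPA3 was the lowest in PC9 (-0.16) and POLD1, the catalytic subunit of polymerase delta, in HCC2935 (-0.34). Without H1975 DTP replicate 2 the H1975 counts were 15 higher and 2 lower, and without HCC827 acute replicate 2 HCC827 had 22 higher and 1 lower.

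**Figure D3:**
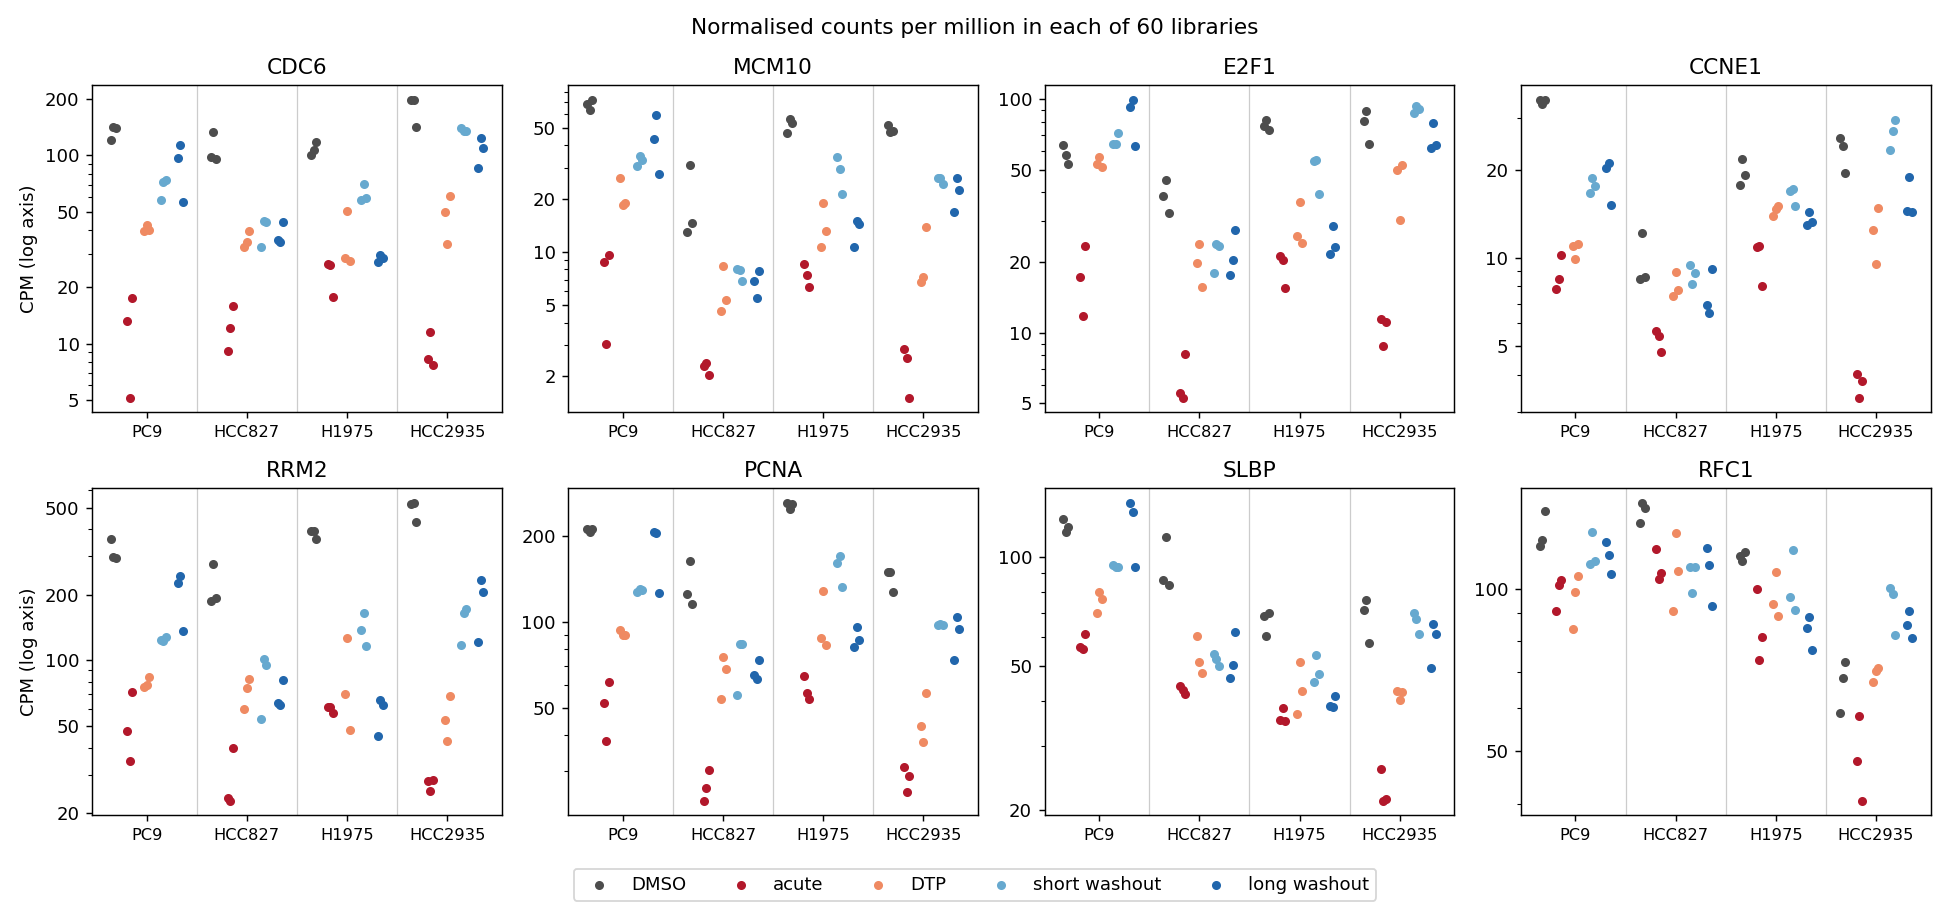
CPM on a log axis (vertical) of 8 genes in all 60 libraries, by line (horizontal) and, within a line, by arm from DMSO to long washout (colours). CDC6 and MCM10 have the lowest mean acute change over the lines (-3.29 and -3.42), E2F1 in PC9 DTPs (51.4 to 56.5 CPM) is level with DMSO (52.9 to 63.9 CPM), and RFC1 changes little.

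The short washout asked what 24 h without drug does to persister cells. In HCC2935, 39 of the 45 genes rose above the DTPs, while 2.32% of all genes did. CDC6 went from 50.2, 34 and 61 to 140.3, 134 and 135 CPM (1.5, SE 0.20, adjusted p = 7.87e-04), and all short washout libraries were above all DTP libraries. CDT1, the highest of the 45, went from 15.8, 9.51 and 21.7 to 38.5, 50 and 52.3 (1.59, SE 0.23, adjusted p = 0.00141). CCNE1 reached 23.3, 27 and 29.5 CPM from 12.5, 9.51 and 14.8 (1.13, SE 0.17, adjusted p = 0.00208), a level that overlapped DMSO (25.7, 24.1 and 19.5). E2F1 behaved likewise, with 87.5, 93.1 and 90.7 CPM after the short washout and 80.7, 89.3 and 64.4 in DMSO.
RRM2 stayed well under DMSO, at 118, 165 and 171 CPM. The 6 genes not called in HCC2935 were GINS4, RFC1, POLE, POLE2, PRIM1 and RPA3, the lowest, at 0.30 (SE 0.15, adjusted p = 0.319). The median over the 45 was 1.01, beside -0.01 over all genes. The ERK output genes of HCC2935 were at -1.86, -2.11 and -2.25 in DTPs and -1.92, -2.21 and -1.67 after the short washout, relative to DMSO on the log2 scale, and their part in the result was not tested. None of the epithelial, endothelial and fibroblast markers was called in HCC2935 in this comparison.

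In PC9 only CCNE1 and CCNE2 were called, beside 3.87% of all genes higher, so 2 of 45 is about what genes at large gave. CCNE1 moved from 11, 9.91 and 11.1 to 16.7, 18.7 and 17.5 CPM (0.73, SE 0.13, adjusted p = 0.00836) and CCNE2 from 7.49, 6.81 and 6.99 to 9.94, 11.6 and 12 (0.67, SE 0.16, adjusted p = 0.0275). The count moved between settings, and the shares of all genes called in those settings are not given here. It was 36 when only the 6 libraries compared were fitted, 17 by DESeq2, 27 without PC9 long washout replicate 3, 9 without long washout replicate 2 or acute replicate 2, 4 without acute replicate 3, 0 without DTP replicate 2, and 1 without DTP replicate 1 or 3 or any one short washout library. CCNE1 kept its call in 25 of 26 other settings and CCNE2 in 18. The values themselves were one-sided, with 44 of 45 genes above 0 and a median of 0.44. At an unadjusted p below 0.05 there were 31 of the 45 by edgeR, beside 3739 of all 14866 genes tested. CDC6, the highest, had 39.9, 42.6 and 40.2 CPM in DTPs and 58.3, 71.9 and 73.9 after the short washout (0.74, SE 0.31, adjusted p = 0.150), without overlap. MCM7 was the lowest, at -0.05.

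H1975 gave 1 call, CDT1, from 14.2, 19.3 and 16 to 31, 39.1 and 30.6 CPM (1.04, SE 0.15, adjusted p = 0.0324), where 0.0585% of all genes were called higher. Here the replicate numbers were taken as pairs, since replicates of the same number deviated together (r = 0.326, 0.673 and 0.616). That pairing was read from these same libraries, and other matchings of the numbers were not tried. With the replicate as a block the count was 7 in the fit of 15 libraries and 40 in the fit of the 6 libraries compared, while it was 0 in that fit without the block. Leaving out H1975 DTP replicate 2 gave 37, leaving out short washout replicate 3 gave 2, and leaving out any of DTP replicates 1 and 3, short washout replicates 1 and 2, DMSO replicate 3 and long washout replicate 2 gave 0. Shares of all genes called in these other settings are not given here. All 45 genes lay above 0, with a median of 0.64, from RPA3 (0.01) to MCM5 of the MCM ring (1.04, SE 0.19, adjusted p = 0.0557). CDC6 had 28.7, 50.7 and 27.6 CPM in DTPs and 58.2, 70.1 and 59.2 after the short washout, replicate 2 being high in both.
In HCC827 none of the 45 genes and 0% of all genes were called. At an unadjusted p below 0.05 there were 2 of the 45 by edgeR, beside 291 of all 14665 genes tested. DESeq2 and limma also called 0 of the 45 and had 2 each. These libraries were taken as paired on the same ground, and with the block the count stayed at 0. The median was 0.14, from -0.31 for POLE2 to 0.55 for GINS4. MCM2 had 89.2, 70.9 and 71.9 CPM in DTPs and 85.2, 95.4 and 79.5 after the short washout. The F test found no gene of the 45 whose short washout change differed between the lines (0.0121% of all genes did). Its unadjusted p was below 0.05 for 37 of the 45 and for 1396 of all 16583 genes. The contrast of HCC2935 with the other lines therefore did not pass this test.

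The long washout left the genes at different levels in the 4 lines. Against DMSO, PC9 had 9 genes lower and 2 higher, HCC827 40 lower, H1975 44 lower, and HCC2935 33 lower and 1 higher. The shares of all genes called lower were 21.5%, 20%, 26% and 20.8%, and the shares called higher were 23.4% in PC9 and 22.5% in HCC2935, so 9 and 2 of 45 in PC9 are no more than genes at large gave. The medians were -0.27, -1.0, -1.42 and -0.58. In 41 of the 45 genes the change differed between the lines by the F test, against 57.1% of all genes, and without replicate 1, 2 or 3 of every group 28 to 42 did. After the long washout 1, 5, 3 and 1 of the 5 epithelial markers were lower than in DMSO in PC9, HCC827, H1975 and HCC2935, with 2 higher in PC9, and 1, 2, 1 and 2 of the 2 fibroblast markers were higher. The epithelial medians were 0.05, -1.24, -1.49 and -0.13. Both leukocyte markers tested in H1975, low in TPM as given above, were lower (median -2.96). Of the endothelial markers 1 was lower in PC9 and 1 higher in each of H1975 and HCC2935. The part of these markers in the result was not tested.

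In PC9 after 7 days, PCNA had 207, 206 and 127 CPM against 212, 206 and 211 in DMSO, and MCM2 had 231, 255 and 153 against 226, 204 and 199. Replicates 1 and 2 were level with DMSO for PCNA and above all DMSO libraries for MCM2, and replicate 3 was below DMSO for both. CCNE1 was the lowest gene, at 20.2, 21.1 and 15.2 CPM against 34.5, 33.5 and 34.5 (-0.86, SE 0.13, adjusted p = 1.37e-04), with no overlap. The 2 genes above DMSO were E2F1, at 92.4, 99.4 and 63.2 CPM against 63.9, 57.7 and 52.9 (0.54, SE 0.20, adjusted p = 0.0359), where replicate 3 overlapped DMSO, and CCNE2, at 12, 11.2 and 8.50 against 7.24, 7.19 and 7.87 (0.50, SE 0.16, adjusted p = 0.0174). Of 26 other settings tried, E2F1 kept its call in 20 and CCNE2 in 19, and both stayed above 0 in all of them. The E2F1 call was lost with the replicate block, at an adjusted p under 0.01, and without DMSO replicate 2 or 3 or long washout replicate 1 or 2. The CCNE2 call was lost at an adjusted p under 0.01 and without DMSO replicate 1 or 2 or long washout replicate 1. It was also lost in the fit of all 60 libraries and in that of only the 6 compared, with or without the block. Without long washout replicate 3 PC9 had 2 genes lower and 2 higher, without replicate 2 it had 19 lower and 1 higher, and without DMSO replicate 1, 2 or 3 it had 3, 7 and 5 calls in all. Only 6 libraries in the fit gave 4 calls.

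HCC827 after 4 days and H1975 after 3 days remained low. RRM2 was the lowest in H1975, at 44.9, 65.6 and 62.5 CPM against 392, 389 and 359 (-2.75, SE 0.27, adjusted p = 2.36e-06), and RPA1 the highest (-0.03). CDC45 in H1975 had 11.7, 14.1 and 14 CPM against 71.3, 58.2 and 65.5. ORC1 was the lowest in HCC827 (-1.69, SE 0.16), and E2F2 the highest, with 4.21, 2.69 and 5.76 CPM against 2.89, 1.19 and 2.80 (0.88, SE 0.50, adjusted p = 0.173). Of the 4 G1/S regulators in HCC827 E2F1 was lower (-0.81, SE 0.22), and CCNE1 (-0.37) and CCNE2 (-0.45) were not called.
In HCC2935 after 10 days the median lay between those of PC9 and HCC827, and RRM2 was again the lowest, at 121, 232 and 206 CPM against 519, 525 and 429 (-1.37, SE 0.21, adjusted p = 9.10e-05). RFC1, the highest, stood above DMSO, at 85.7, 91 and 80.9 CPM against 58.9, 68.2 and 73.1 (0.39, SE 0.12, adjusted p = 0.0163), with no overlap. RFC1 kept this call in 23 of 26 other settings and lost it without DMSO replicate 1 (adjusted p = 0.0860 by edgeR), without long washout replicate 2 (adjusted p = 0.0703 by edgeR) and at an adjusted p under 0.01. SLBP had 49.2, 65.1 and 61.1 against 71.3, 75.9 and 57.8 (-0.20, SE 0.12, adjusted p = 0.212). E2F1 (-0.17), RRM1 (0.05) and MCM4 (-0.06) were among the 11 not called.

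**Figure D4:**
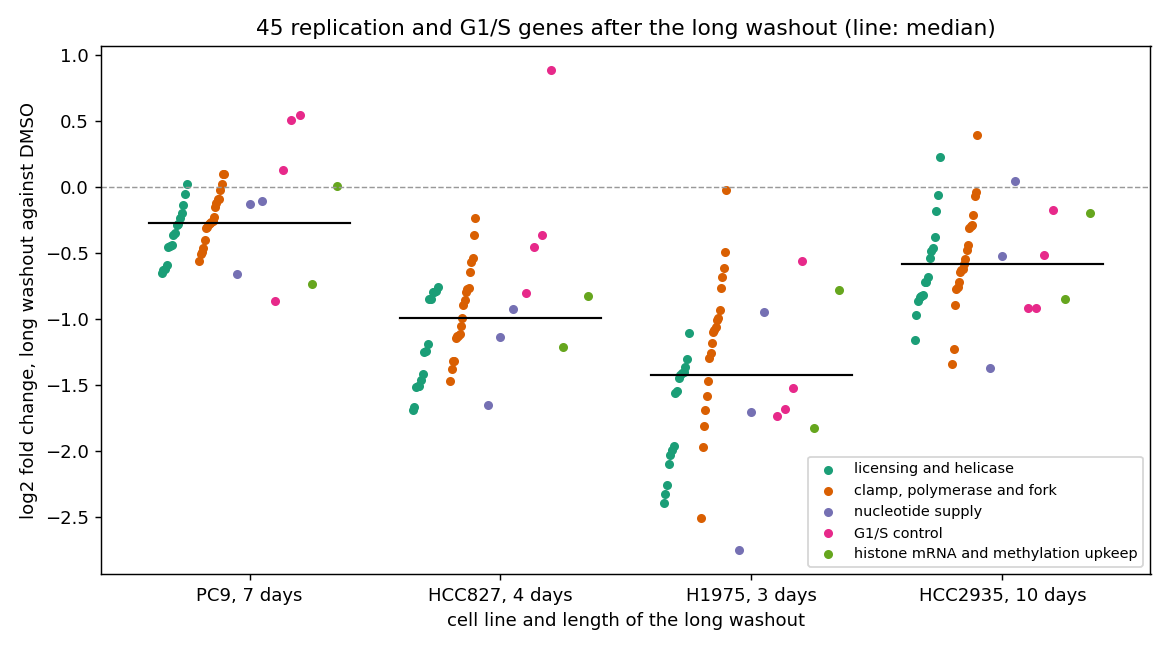
log2 fold change of long washout against DMSO (vertical axis) of the 45 genes in each line (horizontal axis, with the length of the washout), coloured by role; black lines are medians. PC9 lies nearest to 0 with a median of -0.27, and H1975 lowest with -1.42. Above the 0 line lie 8 genes in PC9, 1 in HCC827 (E2F2, not called) and 3 in HCC2935. Of these, E2F1 and CCNE2 in PC9 and RFC1 in HCC2935 were called higher.

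Long washout was also set against DTPs, a comparison added after the data were seen. In PC9, 43 genes were higher (20.4% of all genes) with a median of 0.83, and 45 without long washout replicate 3. Over all genes, 5532 were called in either direction there, and 7387 without that replicate. In HCC2935, 37 were higher (6.82% of all genes) with a median of 0.81. The count was 27 in a fit of the 6 libraries alone and 0 in that fit with the replicate as a block. Over all genes, 1758, 745 and 38 were called in either direction in these 3 fits. With the block, 41 of the 45 had an unadjusted p below 0.05 by edgeR, and the share of all genes is not given here. RRM2 was the highest in PC9 and in HCC2935, at 1.36 (SE 0.22) and 1.78 (SE 0.22). In HCC827 edgeR called none (0% of all genes), with 1 gene at an unadjusted p below 0.05, and DESeq2 called none. In H1975 edgeR called none (0.0065% of all genes), with 0 at an unadjusted p below 0.05, and DESeq2 called none. The fold changes ran from -0.53 (POLE2) to 0.54 (CDT1) in HCC827 and from -0.51 (RRM2) to 0.34 (POLE2) in H1975, and the missing calls do not show that the arms were equal. In H1975 the short washout libraries, at -0.66, -0.48 and -0.80, stood above the long washout libraries, at -1.45, -1.26 and -1.38, in the mean over the 45 genes relative to DMSO; this pair of arms was not tested.

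The partner genes were followed through the later arms too. Of the 68 genes, 60, 53, 57 and 59 were lower in DTPs than in DMSO and 4, 0, 3 and 3 higher in PC9, HCC827, H1975 and HCC2935. In DTPs 33.5%, 20.4%, 25.7% and 25.8% of all genes were called lower. After the short washout 4, 0, 1 and 36 were higher than in DTPs and none was lower. The shares of all genes called higher were then 3.87%, 0%, 0.0585% and 2.32%. After the long washout 22, 55, 57 and 37 were lower than in DMSO and 3, 0, 2 and 3 higher. Of all genes, 21.5%, 20%, 26% and 20.8% were then called lower. DNMT1, the maintenance methyltransferase that UHRF1 recruits, had -0.48, -1.03, -0.70 and -0.74 after the long washout. GMNN had -0.63, -1.22, -1.5 and -1.05. RBL2 had 0.40, -0.04, 0.72 and 0.06, and was called higher in PC9 and H1975.

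As a description over the 60 libraries, each centred on its line, the 45 genes followed one another closely on the log2(CPM + 1) scale. The median correlation of a gene with the other 44 was lowest for RFC1 (0.648) and RPA3 (0.656) and highest for MCM3 (0.936). Of the 10390 genes averaging 10 CPM or more, those outside the 45 most like E2F1 were FAM111B (r = 0.966), ZNF367 (r = 0.965) and DTL (r = 0.957). Those most like CCNE1 were MSH6 (r = 0.932), ACOT7 (r = 0.914) and WDR76 (r = 0.906). Those most like SLBP were UNG (r = 0.959), CHAF1B (r = 0.941) and WDR76 (r = 0.939). The libraries share arms, and differences between arms enter every one of these values.

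By GENCODE 29 gene models, 19 of the 45 share bases with an opposite-strand gene, such as TYMS with ENOSF1 and TYMSOS, and 13 overlap one on the same strand. Named pseudogenes exist for 7, PCNA, RFC3, RFC5, RRM2, TYMS, FEN1 and RPA2. Whether the counting used the strand is not given in the sources used here, so reads of such pairs may be split or shared.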

How the data were processed

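mRNA libraries of 4 lines in 5 arms (3 biological replicates, 60 libraries) were read from a table of estimated counts per gene and a table of log2 TPM, both deposited by the authors. The submitters' processing notes name HISAT2 2.1.0, Salmon 0.8.2 and hg38 without roles; annotation and strand setting are not given in the sources used here. The deposited estimated counts are not normalized, and the deposited log2 values are log2(TPM + 0.01). The growth protocol in every label describes H1975, so media of the other lines were not taken from it.

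Estimated counts were rounded to whole numbers. For each line, the 15 libraries were filtered with filterByExpr, scaled by TMM and fitted with edgeR 4.0.16 (quasi-likelihood F test). p-values were adjusted by Benjamini-Hochberg over all genes tested, 14866 in PC9, 14665 in HCC827, 15379 in H1975 and 14946 in HCC2935, and a gene was called below 0.05. A common fit of 60 libraries (16583 genes) tested the difference of a change between lines. The p-values set a change against the spread between replicates of the same line and arm. Alternatives were DESeq2 1.42.0, limma 3.58.1 on log2 TPM, RLE or library size scaling, other filters, an adjusted p under 0.01, all 60 or only the 6 libraries compared, a replicate block and leaving out replicates. The edgeR step was tested on simulated counts.

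The genes and lists were chosen with earlier results of these data known. Named genes are a panel of 18 chosen by role, the lowest and highest of each comparison, genes called against the main direction, and genes not called; MCM3, MCM4, MCM5, MCM7, RRM1, RFC3, GINS4, DNMT1, GMNN, CDC25A, RBL2 and POLD4 were partly chosen after their values were seen. Replicate numbers were taken as pairing where all 3 same-numbered pairs deviated together (r over 0.1), which held in 3 of 24 comparisons: short washout against DTPs in HCC827 and H1975, and acute against DMSO in HCC2935, where the block left 45 calls.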

Additional observations from a re-analysis of the deposited data

Results flagged for a closer look

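The change differed between the lines, by the edgeR F test over 60 libraries, for 24 of the 45 genes in acute osimertinib against DMSO. It did so for 22 in DTPs against DMSO and for 41 in long washout against DMSO. The shares of all genes tested were 41.4%, 63.9% and 57.1%, so the DTP count lay below its share. Without replicate 1 of every group the counts were 8, 8 and 28. 3 genes were called in opposite directions in different lines after the long washout. The log2 fold changes of RFC1 spanned 0.881 between the lines, those of CCNE2 2.24 and those of E2F1 2.23. The higher call of RFC1 in HCC2935 was lost in 3 of 26 other settings, that of CCNE2 in PC9 in 7 and that of E2F1 in PC9 in 6. The length of the long washout differed by line, so line and length cannot be told apart.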

How the results depend on the processing

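Among the 18 panel genes, no fold change called in the main fit or in an alternative reversed. Of 9355 values under alternatives, 9036 kept their side of the threshold, 197 lost and 122 gained a call. A change of sign in a value called in neither fit was not counted. These values cover the 20 comparisons within lines, without long washout against DTPs. The counts of genes called moved as follows, and the cause was not tested. Shares of all genes called under these settings are not given here. At an adjusted p under 0.01, short washout gave 1 in PC9 and 0 in H1975, long washout against DMSO 2 in PC9 and 22 in HCC2935, DTPs against acute 22 in HCC827 and 15 in H1975, and line differences in DTPs 13. Long washout in PC9 gave 5 with library size only and 6 with limma on log2 TPM. Short washout gave 17 in PC9 and 32 in H1975 with DESeq2, 4 and 7 with all 60 libraries, and 2 in H1975 with no filter. With only the 6 libraries compared, PC9 gave 36 (short) and 4 (long), and H1975 0 (short) and 13 (DTPs against acute).

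The replicate block in the 6 libraries gave 31 and 4 in PC9, 40 and 11 in H1975, and 0 in long washout against DTPs in HCC2935. The block in the main fit gave 7 in H1975 short washout and 1 for line differences in short washout, where RLE also gave 1; it moved no other count by over 1.5 times.

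Leaving out a replicate gave 0 to 27 in PC9 and 0 to 37 in H1975 (short), 3 to 20 in PC9 (long), 23 to 38 in HCC827 (DTPs against acute), and line differences of 8 to 20 (acute) and 8 to 17 (DTPs). With the E2F word 1 base shorter, 11% of all promoters held it. 3 replicates per group limit the precision, and the HCC827 and HCC2935 libraries were the shallower ones.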
